A study of Mus musculus with 8 samples.

Results

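The extracellular matrix, matrix protease and cell adhesion genes described here are the 35 genes, out of the 812 genes for which values were given, whose symbols name them as a collagen, laminin, fibulin, fibrillin, lysyl oxidase, thrombospondin, matrix metalloproteinase, ADAM or ADAMTS protease, serpin, integrin, claudin, cadherin, protocadherin or connexin, plus decorin (*Dcn*). Elastin and the *Timp* and *Cadm* families were also looked for and none of their genes is among the 812, so they were not analysed here. RNA-seq compared type II alveolar epithelial (AT2) cells of C57BL/6 mice that carry floxed RhoA alleles alone (*RhoA* fl/fl, the WT group, 4 samples) with AT2 cells from the *Sftpc-cre;RhoA* fl/fl cross (the RhoA-deficient group, 4 samples), in which Cre driven by the *Sftpc* promoter removes RhoA. The labels call the control genotype wildtype, and its floxed alleles are given by the study's text. *Sftpc* is also active outside AT2 cells, and the study's text names basal cells among those that express it, although it describes RhoA as deleted in the alveolar cells and not in basal cells. By the labels, both groups were single-passage primary cells exposed for 16 hours to 50 μg/mL of cockroach allergen (CRE), whereas the study's text speaks of AT2 cells taken from its asthma models, and no sample without CRE was compared. The AT2 cells had been enriched by removing cells that bind antibodies to Sca-1, Ter119 and CD45, among others. Ages were not given in the sources used here.

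The expression level is given in FPKM, a measure scaled to transcript length and library size, so that levels of different genes can be set side by side. The table holds 1 FPKM value per genotype, the authors' average over its samples. The spread between samples and the depth behind each value are therefore unknown, no test across samples was possible, and each difference below is a description of 2 group averages. Every one of the 812 genes bears the authors' mark of a significant difference between the genotypes, so a gene is listed only because it differed, and a family member that is not listed has no value here. The study's text reports fewer differentially expressed genes than 812, and the reason for this is not known here. *Rhoa* itself was not among the 812, and the loss of RhoA could not be checked in these values.

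Matrix genes build and remodel the scaffold that cells sit on. Fibrillar collagens and elastic fibers carry load in the interstitium and are laid down mainly by fibroblasts, lysyl oxidases cross-link them, and laminins form the basement membrane to which alveolar epithelial cells attach through integrins. Metalloproteinases cut these proteins, serpins and TIMPs restrain proteases, and claudins and cadherins join neighboring cells. RhoA drives actin stress fibers and contractility through its effectors, the force with which a cell pulls on matrix and on its neighbors.

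Of the 35 genes, 15 were higher and 20 were lower in RhoA-deficient AT2 cells than in WT AT2 cells. Genes higher in RhoA-deficient cells made up 55.2% of the 812 genes and 42.9% of the 35, and genes lower in RhoA-deficient cells made up 44.8% and 57.1%, respectively. The difference was computed as log2(FPKM + 1) in RhoA-deficient cells minus that in WT cells, a scale on which low genes appear less changed than their FPKM ratio. A difference of at least 2-fold on this scale was seen for 2 higher genes (5.71% of the 35, against 23.6% of the 812) and for 12 lower genes (34.3% of the 35, against 28.4% of the 812). The median difference was -0.81 over the 35 genes and 0.65 over the 812, 0.82 over the 15 higher genes against 0.94 over all 448 higher genes, and -1.10 over the 20 lower genes against -1.14 over all 364 lower genes. Both counts moved with the scale, and with a pseudocount of 0.1 in place of 1, 5 higher genes (14.3% of the 35, against 28.9% of the 812) and 16 lower genes (45.7%, against 36.7%) reached 2-fold. Counts past 2-fold below are on the log2(FPKM + 1) scale, whereas the fold given with a gene is the ratio of its FPKM values, which is larger.

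The levels of the 35 genes spanned a wide range. In WT cells they ran from 0.158 FPKM for *Col2a1* to 247.2 FPKM for *Cldn18*, with a median of 9.91, and in RhoA-deficient cells from 0.598 FPKM for *Adamts5* to 472.3 FPKM for *Cldn18*, with a median of 8.77. The ratio between the group averages lay between 1.52, for *Serpinb9*, and 4.52, for *Fbln1*. For 6 genes, *Adam8*, *Cldn18*, *Itga7*, *Lamb3*, *Lox* and *Thbs3*, the locus over which the value was estimated is longer than the annotated gene, and what the added stretch contributed was not tested. In 5 genes, *Col2a1*, *Col4a6*, *Fbln1*, *Adamts5* and *Pcdh17*, at least 1 of the genotypes was under 1 FPKM, and *Col2a1* was under it in both.

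**Figure D1:**
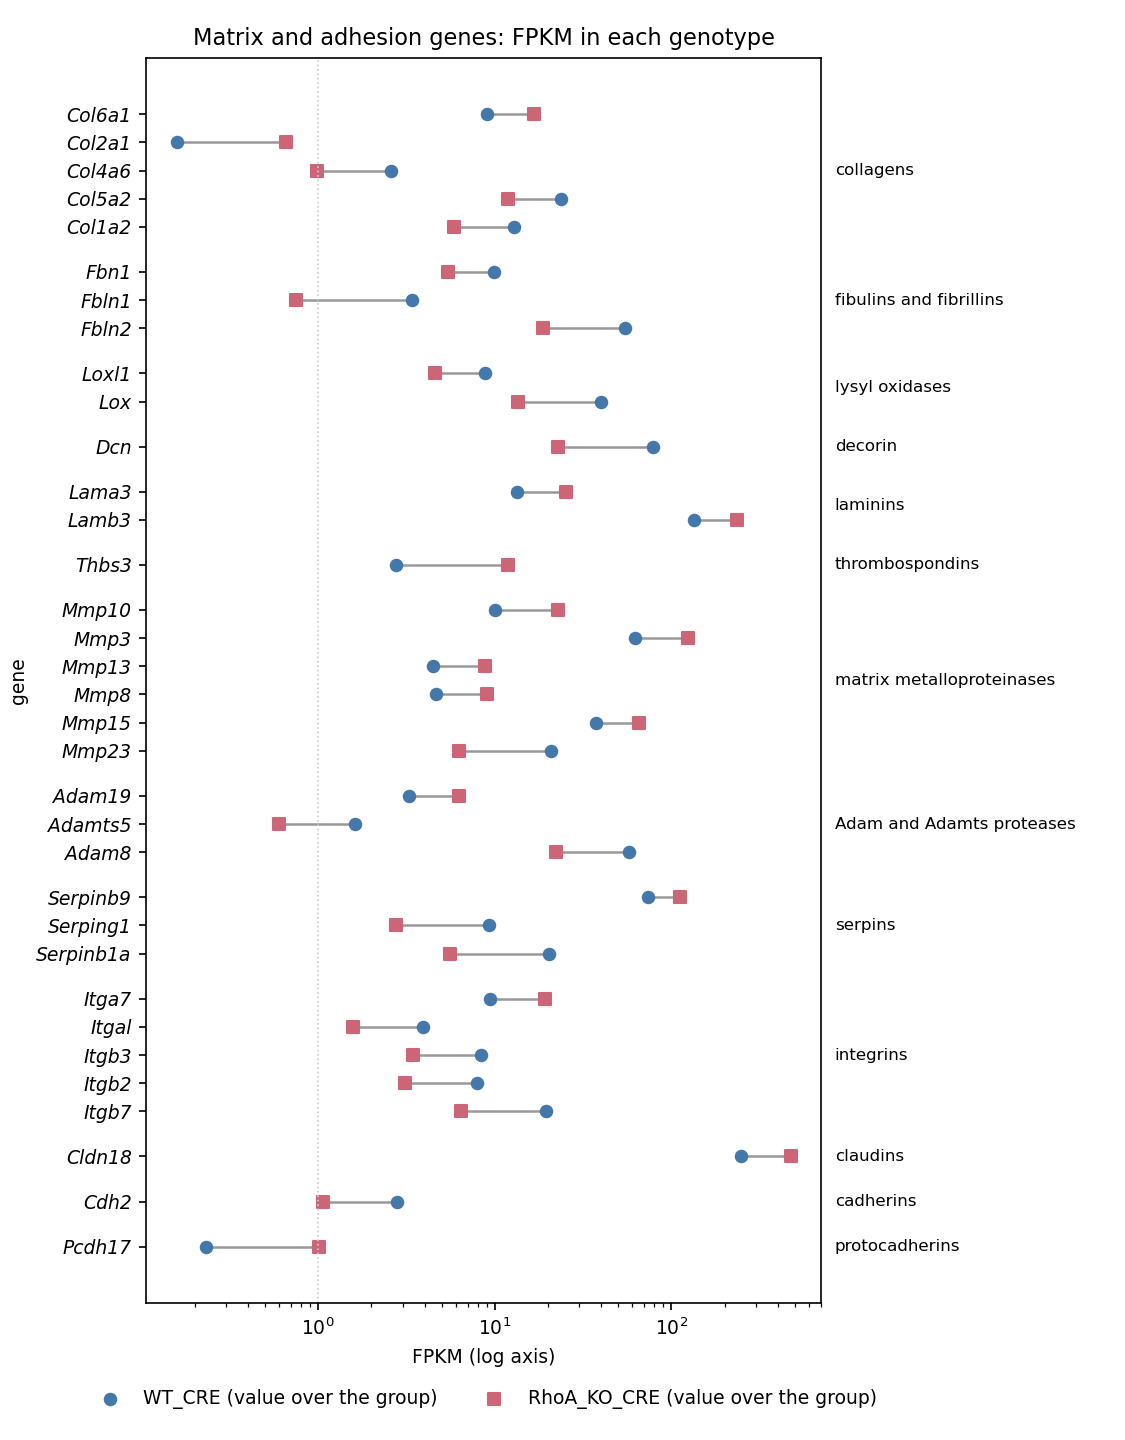
FPKM on a log axis of the matrix, matrix protease and adhesion genes named in the text, grouped by family, with a circle for the WT average and a square for the RhoA-deficient average (the authors' averages, without error bars because no values per sample were given). The squares lie to the left of the circles for all fibulins, fibrillins, lysyl oxidases and *Dcn*, and to the right for both laminins, *Thbs3* and 5 of 6 metalloproteinases; the dotted line marks 1 FPKM.

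**Figure D2:**
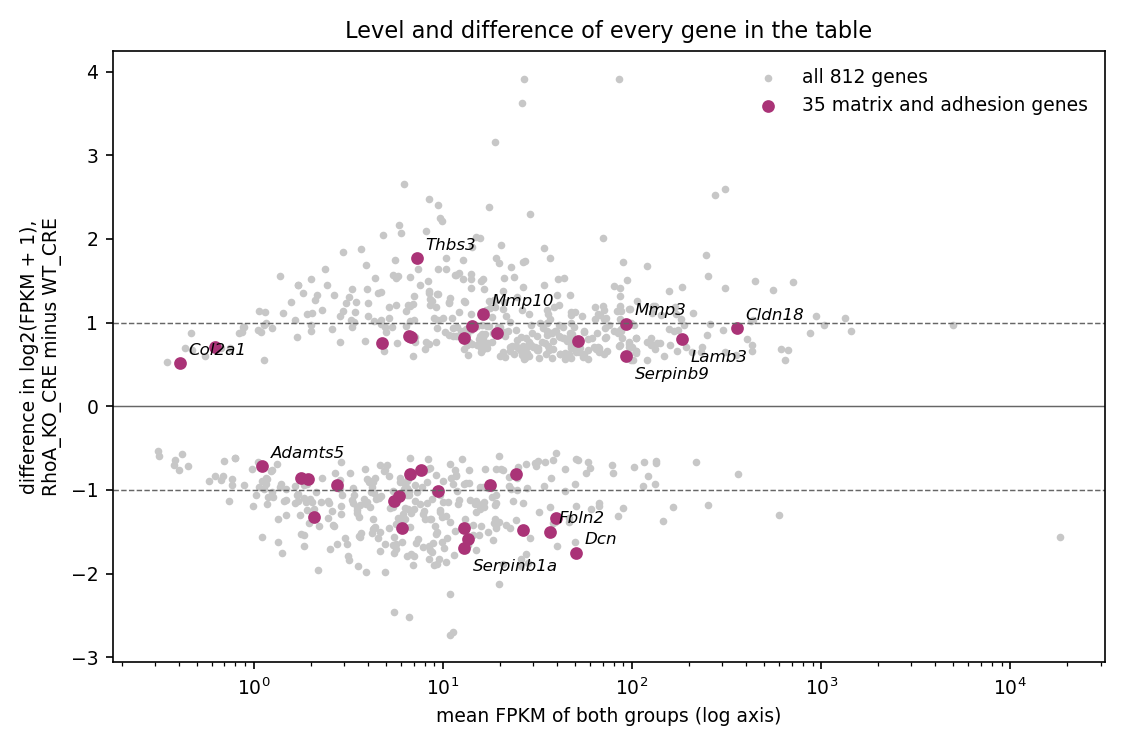
Difference in log2(FPKM + 1), RhoA-deficient minus WT, against the mean FPKM of both groups on a log axis for all 812 genes (gray) and the 35 matrix and adhesion genes (purple). The dashed lines mark a 2-fold difference, which 2 of the 35 genes reached upward (*Thbs3* and *Mmp10*) and 12 downward; no gene lies near 0, and every gene shown bears the mark of a significant difference.

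Of the listed collagen genes 3 were lower and 2 higher in RhoA-deficient AT2 cells, and the listed fibulin, fibrillin and lysyl oxidase genes and *Dcn* were lower. *Dcn*, the small proteoglycan that binds collagen fibrils, had 78.9 FPKM in WT and 22.7 FPKM in RhoA-deficient cells, which was 3.47-fold lower, a difference of -1.75 on the log2(FPKM + 1) scale and the largest downward difference of the 35 genes. Among the 812 genes it was number 30 of the 364 lower ones. *Col1a2*, a chain of type I collagen, had 12.9 FPKM in WT and 5.89 FPKM in RhoA-deficient cells (2.18-fold lower), and *Col5a2*, a chain of the type V collagen that nucleates fibrils, had 23.6 and 11.9 FPKM (1.99-fold lower). Another 2 collagens went the other way: *Col6a1*, a chain of the beaded-filament type VI collagen, had 9.07 FPKM in WT and 16.7 FPKM in RhoA-deficient cells, and *Col2a1*, the cartilage collagen, had 0.158 and 0.658 FPKM. *Col4a6*, a basement membrane collagen chain, had 2.59 FPKM in WT and 0.986 FPKM in RhoA-deficient cells. GENCODE M21 lists 45 protein-coding collagen genes, and the 40 others were not analysed here. Of 11 fibrillar collagen genes, 3 were listed, 2 lower and 1 higher.

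The elastic fiber genes that were listed were all lower. *Fbln2*, an elastic fiber and basement membrane glycoprotein, had 54.7 FPKM in WT and 18.7 FPKM in RhoA-deficient cells (2.92-fold lower). *Fbln1*, its paralogue, had 3.40 and 0.753 FPKM (4.52-fold lower), the largest ratio of the 35 genes, although its difference on the log2(FPKM + 1) scale was -1.33 because the values are small. *Fbn1*, the main protein of microfibrils, had 9.91 FPKM in WT and 5.44 FPKM in RhoA-deficient cells, and 20.1% of its exonic bases are shared with *Gm9913* on the opposite strand, whose reads cannot be told apart from its own if strand, which the library kit kept, was not used in counting. Those genes were joined by the enzymes that cross-link collagen and elastin. *Lox* had 39.7 FPKM in WT and 13.6 FPKM in RhoA-deficient cells (2.93-fold lower), and *Loxl1* had 8.83 and 4.60 FPKM (1.92-fold lower). Of 23 genes on a wider list of elastic fiber and lysyl oxidase genes, 7 were listed and all 7 were lower, 4 of them by at least 2-fold, with a median of -1.33; *Mfap5*, a microfibril protein, had 8.79 FPKM in WT and 2.10 FPKM in RhoA-deficient cells. Of 26 proteoglycan and hyaluronan synthase genes, 3 were listed and all 3 were lower: besides *Dcn*, these were *Has1*, a hyaluronan synthase, with 10.0 and 3.53 FPKM, and *Gpc3*, a cell-surface heparan sulfate proteoglycan, with 14.5 and 7.54 FPKM.

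Markers of cells that make interstitial matrix were looked up beside these genes. Of 16 fibroblast markers, 3 were listed (*Dcn*, *Col1a2* and *Mfap5*, of which *Dcn* and *Col1a2* are among the 35 genes themselves), all lower, and their summed level was 100.5 FPKM in WT and 30.7 FPKM in RhoA-deficient cells. *Dcn* alone held 78.9 and 22.7 FPKM of these sums. All 3 are matrix genes whose values are given above, so they add no separate measure of fibroblasts. Of 8 mesothelial markers, 6 were listed and all 6 were lower by at least 2-fold, with a summed level of 226.9 FPKM in WT and 87.7 FPKM in RhoA-deficient cells. *Msln* (mesothelin), a defining marker of the mesothelium, had 121.0 and 48.2 FPKM, and *Upk1b* had 67.7 and 25.3 FPKM. Of 11 smooth muscle and pericyte markers, 2 were listed and both were lower, *Acta2* with 65.5 and 33.9 FPKM and *Cnn1* with 9.04 and 1.97 FPKM. No marker of these lists that was listed had 0 FPKM in either genotype. The part of fibroblasts, mesothelial cells and muscle cells in the lower matrix genes was not tested, and in RNA from a whole preparation fewer cells of a type and less RNA per cell cannot be told apart.

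**Figure D3:**
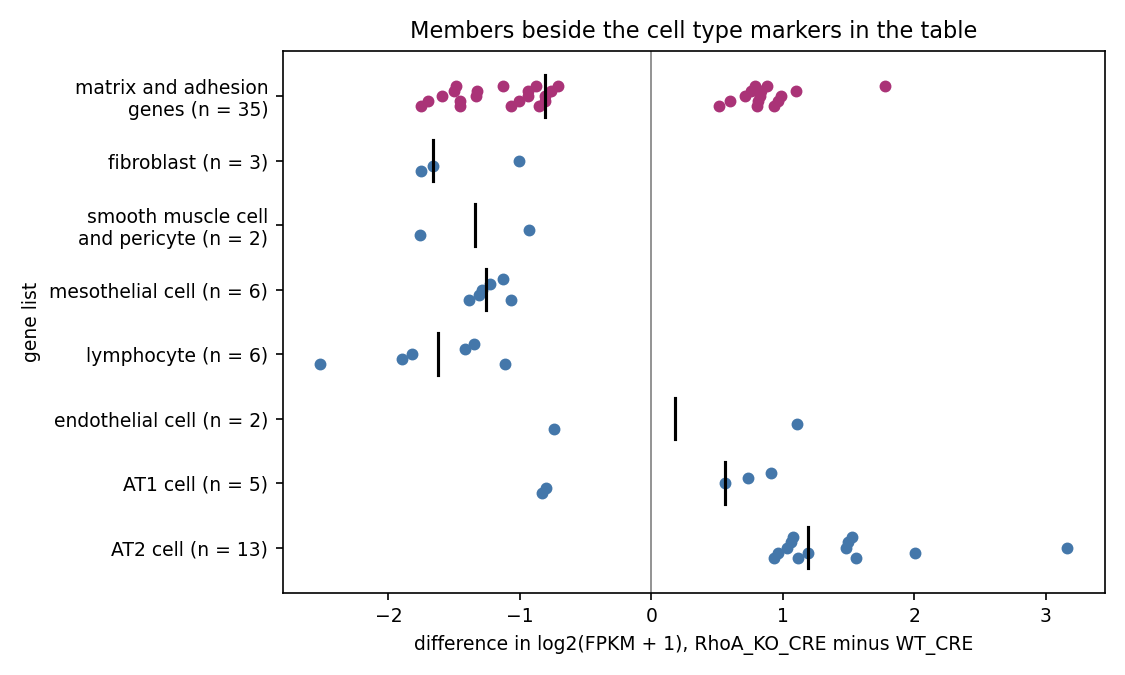
Difference in log2(FPKM + 1), RhoA-deficient minus WT, of the 35 matrix and adhesion genes (purple) and of the listed markers of 7 cell types (blue), 1 point per gene, with a black bar at each median. The matrix and adhesion genes lie on both sides of 0, the fibroblast, smooth muscle, mesothelial and lymphocyte markers all below 0, and the 13 AT2 markers all above 0. *Dcn* and *Col1a2* are shown both as matrix genes and as fibroblast markers.

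The laminin and claudin genes that were listed, 2 of 11 protein-coding laminin genes and 1 of 35 claudin genes, were higher in RhoA-deficient AT2 cells. *Lamb3* and *Lama3* encode chains of the laminin that anchors epithelial cells to the basement membrane. *Lamb3* had 134.0 FPKM in WT and 235.2 FPKM in RhoA-deficient cells (1.76-fold higher), and *Lama3* had 13.3 and 25.3 FPKM (1.90-fold higher). The level of *Lamb3* was thus above that of *Lama3* in both genotypes. *Cldn18*, the main claudin of the alveolar epithelium, was the most abundant of the 35 genes, with 247.2 FPKM in WT and 472.3 FPKM in RhoA-deficient cells (1.91-fold higher, a difference of 0.93), and it held place 20 among the 812 genes by level in RhoA-deficient cells. Of 25 basement membrane genes, 4 were listed: the laminin genes were higher, and *Col4a6* and *Nid1* (nidogen, which links laminin to collagen IV, 15.4 and 8.17 FPKM) were lower. Of 27 tight junction genes, *Cldn18* was the only one listed.

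Markers of AT2 cells were higher as well. Of 14 AT2 markers, 13 were listed, each at a higher level in RhoA-deficient cells. The marker that was not listed is *Sftpc*, whose promoter drives Cre in these mice. The median difference of the 13 was 1.19, and their summed level was 5964 FPKM in WT and 12547 FPKM in RhoA-deficient cells. A single marker held much of these sums, 3358 FPKM in WT and 6561 FPKM in RhoA-deficient cells. Of the 13, *Slc34a2*, a phosphate transporter, had the largest difference, 3.16, followed by *Lamp3*, a lamellar body protein, at 2.01. AT1 markers went both ways, 3 higher and 2 lower of 5 listed out of 11. Airway markers went the other way: *Scgb1a1*, the club cell secretoglobin and the only one of 8 club cell markers that was listed, had 27285 FPKM in WT and 9204 FPKM in RhoA-deficient cells. Of 10 ciliated cell markers, 7 were listed, 6 lower and 1 higher, with a median difference of -1.39. Their summed level was 208.4 FPKM in WT and 172.0 FPKM in RhoA-deficient cells. The 1 higher marker held a large part of these sums, 60.4 FPKM in WT and 113.4 FPKM in RhoA-deficient cells. The part of AT2, AT1 and airway cell numbers in the higher laminin and claudin levels was not tested.

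*Thbs3*, a matricellular thrombospondin, had the largest upward difference of the 35 genes. Its level was 2.76 FPKM in WT and 11.8 FPKM in RhoA-deficient cells, 4.30-fold higher and a difference of 1.77, number 29 of the 448 higher genes. Its gene body spans chr3:89215180-89226837 (GRCm38, plus strand), and 6.59% of its exonic bases are shared with *Mtx1* on the opposite strand, so the value is uncertain to the extent that reads of *Mtx1* entered it. Of 23 matricellular and glycoprotein genes, 6 were listed, 3 higher and 3 lower. *Matn4*, a matrilin, had 3.68 FPKM in WT and 9.77 FPKM in RhoA-deficient cells, whereas *Ccn2* (connective tissue growth factor) had 173.5 and 91.1 FPKM and *Ccn3* had 3.99 and 1.55 FPKM.

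Of the 6 listed metalloproteinase genes, 5 were higher in RhoA-deficient AT2 cells, and 4 of these 5 lie in a single cluster on chromosome 9. *Mmp3*, a stromelysin that cleaves proteoglycans, laminin and fibronectin, had 62.2 FPKM in WT and 124.2 FPKM in RhoA-deficient cells (2.00-fold higher). *Mmp10*, the related stromelysin, had 10.1 and 22.7 FPKM (2.26-fold higher, a difference of 1.10), and was, with *Thbs3*, one of the 2 genes past 2-fold upward on the log2(FPKM + 1) scale. The collagenase genes were close to each other in level: *Mmp13* had 4.47 FPKM in WT and 8.77 FPKM in RhoA-deficient cells (1.96-fold higher), and *Mmp8* had 4.64 and 8.97 FPKM (1.93-fold higher). The 4 ratios lay between 1.93 and 2.26, while the levels of the genes differed far more, with *Mmp3* the highest in both genotypes. In GRCm38 the genes run on the plus strand from the start of *Mmp13* at 7272514 to the end of *Mmp8* at 7568485, a span of 296.0 kb. The cluster holds 10 *Mmp* genes, counting the polymorphic pseudogene *Mmp1a*, over 427.1 kb, and the other 6, *Mmp12*, *Mmp1b*, *Mmp1a*, *Mmp27*, *Mmp20* and *Mmp7*, were not analysed here.

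**Figure D4:**
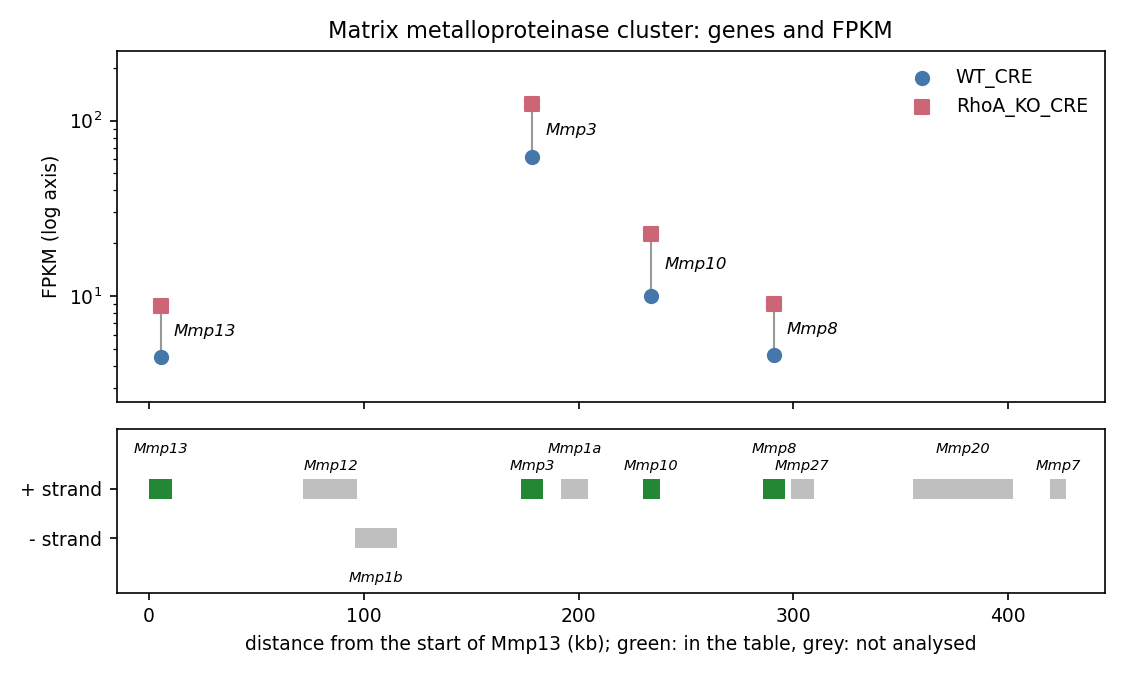
The metalloproteinase cluster by distance in kb from the start of *Mmp13*. Top, FPKM on a log axis of the 4 listed genes in WT (circles) and RhoA-deficient cells (squares), each square 1.93 to 2.26 times the circle below it; bottom, the bodies of all 10 *Mmp* genes and pseudogenes by strand, green where listed and gray where not analysed.

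Because these 4 neighbors were higher together, the 250 bases upstream of each were read from RefSeq promoter sequences of GRCm38.p6, together with those of *Mmp23*, the metalloproteinase that was lower. All 5 promoters were chosen by the genes' values, *Mmp10* and *Mmp23* as the ends of the family's order and the others after their values were seen. Each is written 5′ to 3′ on the strand of the gene and ends at the base before the RefSeq start. For *Mmp10* and *Mmp8* this start lies 10 and 27 bases before the GENCODE start, so positions depend on the annotation used. Capitals mark the AP-1 motif (TGANTCA, the site of Fos and Jun dimers) and the TATA box (TATAAA), each searched on both strands; neither overlaps the other.

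Mmp13 (chr9:7272264-7272513, plus strand): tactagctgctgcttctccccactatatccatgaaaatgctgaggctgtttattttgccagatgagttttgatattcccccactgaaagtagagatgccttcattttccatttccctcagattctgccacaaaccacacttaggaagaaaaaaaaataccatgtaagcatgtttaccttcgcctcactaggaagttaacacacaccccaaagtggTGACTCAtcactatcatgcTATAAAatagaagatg

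Mmp3 (chr9:7445572-7445821, plus strand): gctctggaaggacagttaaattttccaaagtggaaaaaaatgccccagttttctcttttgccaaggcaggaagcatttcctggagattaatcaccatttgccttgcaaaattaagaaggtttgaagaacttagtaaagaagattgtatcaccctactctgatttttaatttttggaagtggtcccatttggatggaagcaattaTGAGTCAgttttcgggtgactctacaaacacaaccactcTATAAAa

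Mmp10 (chr9:7502092-7502341, plus strand): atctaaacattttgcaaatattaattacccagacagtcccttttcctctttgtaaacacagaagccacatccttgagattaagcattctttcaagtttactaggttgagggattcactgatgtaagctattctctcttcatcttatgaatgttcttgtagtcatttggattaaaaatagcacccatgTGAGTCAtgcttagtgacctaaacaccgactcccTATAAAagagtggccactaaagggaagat

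Mmp8 (chr9:7558179-7558428, plus strand): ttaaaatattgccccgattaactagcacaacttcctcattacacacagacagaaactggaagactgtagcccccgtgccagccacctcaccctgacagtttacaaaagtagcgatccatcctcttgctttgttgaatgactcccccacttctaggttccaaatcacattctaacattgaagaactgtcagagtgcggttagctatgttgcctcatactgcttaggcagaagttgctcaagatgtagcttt

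Mmp23 (chr4:155653385-155653634, minus strand): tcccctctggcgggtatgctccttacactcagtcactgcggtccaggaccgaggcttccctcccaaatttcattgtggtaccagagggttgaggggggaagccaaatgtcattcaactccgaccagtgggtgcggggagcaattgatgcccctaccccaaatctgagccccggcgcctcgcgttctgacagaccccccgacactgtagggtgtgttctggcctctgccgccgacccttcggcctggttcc

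*Mmp13*, *Mmp3* and *Mmp10* each held 1 AP-1 motif followed by 1 TATA box, in this order, at different distances from the start. In *Mmp13* the AP-1 letters TGACTCA lay at bases -35 to -29 and the TATA box at -16 to -11 from the RefSeq start. In *Mmp3* the AP-1 letters TGAGTCA lay at -46 to -40 and the TATA box at -7 to -2, and in *Mmp10* they lay at -63 to -57 and -29 to -24. The windows of *Mmp8* and *Mmp23* held neither. Of the 32851 windows of the same length in the table of promoters, 6.75% held the AP-1 motif, 12.4% the TATA box and 1.21% both. Of the 35 genes, 20 had a promoter sequence, some with several annotated starts, which gave 26 windows. The AP-1 motif was found in 5 of the 26 windows (those of *Mmp13*, *Mmp3*, *Mmp10*, *Col6a1* and *Adam19*), against 8.08% of the 792 windows of the 812 listed genes. The TATA box was found in 3, against 12.0% of the windows of the listed genes. The TEAD motif (GGAATG) was found in 2 (*Adam19* and *Lamb3*), against 12.6% of all windows and 13.4% of those of the listed genes. The GC box (GGGCGG) was found in 9, against 32.7% and 47.1%, and the CArG box of SRF in 0, against 1.47% and 1.52%. A match of letters is not a bound site, and binding was not measured.

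The metalloproteinases outside the cluster diverged. *Mmp15*, a membrane-anchored metalloproteinase, had 37.6 FPKM in WT and 65.6 FPKM in RhoA-deficient cells (1.74-fold higher). *Mmp23*, another membrane-bound member, had 20.9 and 6.27 FPKM (3.33-fold lower, a difference of -1.59). It was thus the only one of the 6 that was lower. Of 33 matrix protease genes on a wider list, 10 were listed, 6 higher and 4 lower, with a median of 0.77; *Ctsk*, the collagen-degrading cathepsin K, was lower, with 15.5 FPKM in WT and 4.37 FPKM in RhoA-deficient cells.

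The listed ADAM and ADAMTS genes were 2 lower and 1 higher of 58 protein-coding genes of these names. *Adam8*, a membrane protease that is prominent on leukocytes, had 57.2 FPKM in WT and 22.2 FPKM in RhoA-deficient cells (2.58-fold lower). *Adamts5*, an aggrecanase, had 1.62 and 0.598 FPKM. *Adam19*, a membrane sheddase, had 3.28 FPKM in WT and 6.23 FPKM in RhoA-deficient cells (1.90-fold higher), and 10.1% of its exonic bases are shared with antisense genes.

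Protease inhibitors also went both ways. *Serpinb1a*, an intracellular inhibitor of neutrophil elastase and related proteases, had 20.3 FPKM in WT and 5.57 FPKM in RhoA-deficient cells (3.65-fold lower, a difference of -1.70, second to *Dcn* among the lower genes of the 35). *Serping1*, the C1 inhibitor of complement, had 9.32 and 2.76 FPKM (3.37-fold lower). *Serpinb9*, the inhibitor of granzyme B, had 74.1 FPKM in WT and 112.5 FPKM in RhoA-deficient cells (1.52-fold higher), the smallest ratio of the 35 genes. *Serpinb1a* and *Serpinb9* have close paralogues in the mouse genome, among which reads may have been divided, so their values are uncertain. Of 23 protease inhibitor genes, 4 were listed, 2 higher and 2 lower; *Slpi*, a secreted inhibitor of elastase in the airways, had 282.6 FPKM in WT and 573.4 FPKM in RhoA-deficient cells.

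Of 27 integrin genes, 5 were listed, and all of these but *Itga7* were lower. *Itgal* and *Itgb2* encode the subunits of LFA-1, the leukocyte receptor for ICAM-1. *Itgal* had 3.94 FPKM in WT and 1.57 FPKM in RhoA-deficient cells (2.51-fold lower), and *Itgb2* had 7.96 and 3.10 FPKM (2.56-fold lower), so that both subunits differed by nearly the same ratio. *Itgb7*, a subunit of lymphocyte homing receptors, had 19.5 FPKM in WT and 6.47 FPKM in RhoA-deficient cells (3.01-fold lower). *Itgb3*, the subunit that pairs with αv in vitronectin receptors, had 8.30 and 3.43 FPKM (2.42-fold lower). *Itga7*, a laminin-binding subunit best known from muscle, had 9.39 FPKM in WT and 19.3 FPKM in RhoA-deficient cells (2.05-fold higher, a difference of 0.97). Integrins of the epithelium such as *Itga3*, *Itga6*, *Itgb1*, *Itgb4* and *Itgb6* were not analysed here.

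Lymphocyte markers were lower in the same cells. Of 12 such markers, 6 were listed and all 6 were lower by at least 2-fold, with a summed level of 107.6 FPKM in WT and 29.2 FPKM in RhoA-deficient cells. *Ptprc*, which encodes the CD45 used to remove leukocytes during the isolation, had 21.5 FPKM in WT and 7.41 FPKM in RhoA-deficient cells, and *Cd4* had 12.0 and 1.28 FPKM. None of the listed markers was at 0 FPKM, so leukocyte transcripts were present in both groups. The macrophage list and the neutrophil and eosinophil list had 1 listed marker each, and both were higher. *Ptprc*, counted here with the lymphocyte markers but shared by leukocytes, was lower. With 1 gene each, the direction of those other leukocytes was not established. Of 15 macrophage markers only *Cd14* was listed, with 65.8 FPKM in WT and 132.0 FPKM in RhoA-deficient cells. Of 11 neutrophil and eosinophil markers only *S100a9* was listed, with 2.69 and 16.5 FPKM (a difference of 2.25). The part of leukocytes in the lower integrin genes was not tested.

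Few genes of cell-cell junctions were listed. *Cdh2* (N-cadherin), the cadherin of mesenchymal and mesothelial cells, had 2.79 FPKM in WT and 1.07 FPKM in RhoA-deficient cells (2.61-fold lower). *Pcdh17*, a protocadherin, had 0.231 FPKM in WT and 1.01 FPKM in RhoA-deficient cells, the higher of which is near the level of 1 FPKM. Of 26 adherens junction and desmosome genes, 2 were listed and both were lower, *Cdh2* and *Dsg2*, a desmosomal cadherin with 17.5 and 9.88 FPKM. E-cadherin (*Cdh1*) was not analysed here.

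Genes of the pathways that tie adhesion to RhoA were looked up beside the 35 genes. Of 32 focal adhesion and actomyosin genes, 3 were listed. *Diaph1*, a formin that RhoA activates, had 33.5 FPKM in WT and 60.3 FPKM in RhoA-deficient cells, *Tln2* (talin 2, which links integrins to actin) had 3.06 and 6.79 FPKM, and *Cnn1* (calponin), a smooth muscle protein, was lower as given above. Of 21 YAP and TEAD target genes, which respond to cell tension, 4 were listed and all 4 were lower, with a median of -0.95 and none of them past 2-fold on the log2(FPKM + 1) scale. Beside *Ccn2*, these were *Ankrd1* with 24.1 FPKM in WT and 11.8 FPKM in RhoA-deficient cells, *Nt5e* with 37.4 and 18.6 FPKM, and *Tgfb2* with 14.9 and 8.37 FPKM. Of 27 genes that respond to or transmit TGF-β, 5 were listed, 4 lower and 1 higher. *Bhlhe40*, a transcription factor, was the higher one, with 102.3 FPKM in WT and 233.2 FPKM in RhoA-deficient cells. *Tgfb1*, the gene of TGF-β1, is among the 27 but has no value here. These lists share *Ccn2* and *Tgfb2*, and their counts are descriptions of listed genes, not tests of a pathway.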

How the data were processed

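AT2 cells of 2 genotypes, 4 samples each, were sequenced. The authors prepared stranded mRNA libraries (whether strand was used in counting was not given in the sources used here), aligned them with STAR 2.7.2b, which the submitters' processing notes list beside Partek, and compared the genotypes with Cufflinks. Genome builds differ between the sources: the processing notes name mm9 and the methods GRCm38, and 651 of the 812 loci equal a gene span of GENCODE M21 on GRCm38, which was used here. The deposited FPKM values are 1 average per genotype. The authors' columns of fold change, test statistic, p-value, q-value and significance mark were not used, beyond noting that all 812 rows bear the mark. Depth per sample is unknown, so no interval is given.

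From these values came the difference in log2(FPKM + 1), the counts past 2-fold, medians, exon overlaps, gene distances and motif matches. A limma test, intended only if values per sample were given, could not be run. Of the 35 genes all but 1 are named; that gene enters the counts and medians but is not reported here, nor is the list it stands on alone. Further named are at most 4 genes by size of difference from each of 14 pathway and 13 marker lists. The genes and lists were chosen with earlier results of these data known. No values are given for *Sftpc*, *Tgfb1*, *Cdh1* and the epithelial integrins, which were not analysed. Alternatives were pseudocounts of 0.1 and 0.01, a mean FPKM of at least 1 or 5, folds of 1.5 and 3, and leaving out the serpins. The calculations were tested on simulated data in Python 3.11.15 with NumPy 2.4.6 and pandas 2.3.3, and plots were drawn with Matplotlib 3.10.9.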

Additional observations from a re-analysis of the deposited data

How the results depend on the processing

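No paired analysis was possible because each genotype is given by a single group average, and leaving out replicates was not run for the same reason. No gene changed direction under the pseudocounts of 0.1 and 0.01, by construction of the scale. With 0.1 the median difference of the 35 genes was -0.93 and 5 higher and 16 lower genes reached 2-fold, and with 0.01 these were -0.94, 5 and 16, in place of -0.81, 2 and 12. Under either of these pseudocounts, 7 genes crossed 2-fold: *Adamts5*, *Cdh2*, *Col4a6* and *Itgal* among the lower and *Col2a1*, *Itga7* and *Pcdh17* among the higher genes. The order of the largest downward differences also moved with the pseudocount. With 0.1 it was *Fbln1* (-2.04), *Serpinb1a* (-1.85) and *Dcn* (-1.79), and with 0.01 these were -2.16, -1.86 and -1.79. Without the serpins the median was -0.79. A threshold of 1.5-fold gave 14 higher and 20 lower genes, and a threshold of 3-fold 1 and 3, by their construction. For both thresholds and for the pseudocount of 0.01, the shares among all listed genes are not given here. The counts at those settings therefore cannot tell whether the 35 genes differ from the other listed genes. A mean FPKM of at least 1 or 5 moved no count of higher or lower genes by over 1.5 times. The depth is unknown, and what it limits could not be computed; 5 genes had a value under 1 FPKM.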

Other observations

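Apart from the metalloproteinase cluster, 2 pairs of the 35 genes lie within 1000 kb of each other, and both pairs diverged. *Serpinb1a* and *Serpinb9* lie 152.1 kb apart on chromosome 13, and their differences in log2(FPKM + 1) were -1.70 and 0.60. *Col6a1* and *Itgb2* lie 804.1 kb apart on chromosome 10, with differences of 0.81 and -1.13.

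Markers of further cell types were looked up for completeness. Of 7 basal cell markers 1 was listed (*Krt15*, a difference of -1.30 in log2(FPKM + 1)). Of 13 endothelial markers 2 were listed, *Pecam1* at -0.74 and *Esam* at 1.10. None of 7 erythroid markers was listed.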
